A study of Mus musculus with 4 samples.

Results

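The retinoic acid receptors and retinoid X receptors were followed in mouse embryonic stem cells that express NUP98-HOXA9, a leukaemia fusion of a nucleoporin with a homeodomain transcription factor. The set was chosen by gene symbol: the receptor genes Rara, Rarb, Rarg, Rxra, Rxrb and Rxrg, and Nrip1 and Ncor1, which encode corepressors of these receptors. All 8 were found among 55401 gene identifiers, and all 8 passed the filter on low counts, Rarb through the fusion libraries alone. Messenger RNA was sequenced in 4 libraries of the EB3 line, a mouse embryonic stem cell line held on gelatin in serum medium with LIF, the cytokine that maintains the undifferentiated state. They were 1 library of unmodified parental EB3 cells (genotype WT), 1 of EB3-derived cells with an empty vector (genotype WT) and 2 of EB3-derived cells with NUP98-HOXA9 (replicates 1 and 2). No drug, ligand or time course is named in the labels. No source used here names the promoter driving the fusion, and nothing says that the fusion samples come from independent clones or cultures, so p-values reflect the spread among these libraries alone, which may be technical. The empty-vector library is the sole control for the vector.

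Retinoic acid receptors (RARs) bind DNA as heterodimers with retinoid X receptors (RXRs), at paired copies of a short hexamer spaced by a few bases, the retinoic acid response elements. Without ligand the dimer holds corepressors such as NCOR1, and all-trans retinoic acid replaces these with coactivators. In embryonic stem cells retinoic acid is known as an inducer of differentiation, and Rarb is a textbook target of the receptors, with a response element in its own promoter.

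Letters of such a repeat were found before the start site of Rarb, the member with the largest change. The 250 bases before a RefSeq start site are shown for the 3 members that passed the test below. Rxra and Nrip1 each have another start, and the start whose window holds the most hexamers was chosen. The stretch that ends at the start site of Cyp26a1, which encodes a retinoic acid-degrading enzyme, is shown for comparison. All are from RefSeq on GRCm38.p6, 5′ to 3′ on the gene's strand. In Rarb and Cyp26a1 capitals mark a DR5 repeat, that is 2 hexamers read in the same direction with 5 bases between them, spacer included. In Nrip1 and Rxra they mark single hexamers on either strand. The hexamer AGGTCA was searched on both strands. The variant AGTTCA was searched likewise. GGGTCA was a further form that counted. The last form was GGTTCA. The Rarb stretch is chr14:16575477-16575726 (minus strand), that of Cyp26a1 chr19:37697756-37697807 (plus strand), that of Nrip1 chr16:76373828-76374077 (minus strand) and that of Rxra chr2:27709042-27709291 (plus strand).
Rarb: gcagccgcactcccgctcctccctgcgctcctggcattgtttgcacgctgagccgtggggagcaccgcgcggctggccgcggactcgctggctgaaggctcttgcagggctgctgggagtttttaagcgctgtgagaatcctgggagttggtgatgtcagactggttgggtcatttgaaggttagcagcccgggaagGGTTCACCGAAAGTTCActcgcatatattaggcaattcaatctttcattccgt
Cyp26a1: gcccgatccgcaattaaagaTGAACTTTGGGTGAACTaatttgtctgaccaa
Nrip1: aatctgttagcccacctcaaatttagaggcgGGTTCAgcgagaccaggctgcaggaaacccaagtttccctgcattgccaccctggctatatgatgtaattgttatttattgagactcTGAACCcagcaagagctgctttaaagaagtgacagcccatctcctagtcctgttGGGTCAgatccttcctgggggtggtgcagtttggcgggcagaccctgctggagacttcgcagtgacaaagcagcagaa
Rxra: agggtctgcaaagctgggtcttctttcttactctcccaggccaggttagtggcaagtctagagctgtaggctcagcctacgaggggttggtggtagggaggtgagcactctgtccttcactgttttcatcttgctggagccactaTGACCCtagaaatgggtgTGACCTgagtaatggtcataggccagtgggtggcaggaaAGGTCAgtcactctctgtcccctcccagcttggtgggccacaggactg

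The Rarb repeat, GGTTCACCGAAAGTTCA, ends 36 bases before the start site and runs in the direction of the gene. In Cyp26a1 the repeat reads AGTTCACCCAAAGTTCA on the opposite strand and ends 15 bases before the start. RefSeq gave 17 promoter windows of 300 bases (250 before and 50 after a start) for the 8 members. A DR5 was found in the Rarb window alone among these 17, and in 32 of 32851 windows of all genes (0.0974%). Repeats with spacers of 1 base (DR1, in 0.222% of all windows) or 2 bases (DR2, in 0.268%) were in none of the members' windows. The Nrip1 stretch holds 3 single hexamers, and so does that of Rxra, at starts that were chosen for holding the most. At least 1 hexamer is present in 43.7% of all windows. Nrip1 has another RefSeq start, as does Rxra, and no hexamer lies in either of those windows. The Rarb and Rxra starts shown both lie inside the annotated gene spans rather than at their ends.

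Rarb, Rxra and Nrip1 were higher in fusion cells than in the wild-type group, which joins the parental and empty-vector libraries. These 3 of 8 genes passed edgeR's quasi-likelihood test at a Benjamini-Hochberg adjusted p of 0.05, all upward. None of the 8 fell. At an unadjusted p under 0.05 edgeR counted 4 higher and 1 lower (Rxrg), where 12.7% of all genes were higher and 7.41% lower. DESeq2's adjusted test counted 4 higher and 0 lower, where 5.28% of all genes were higher and 2.45% lower. Rarg lay higher in both fusion libraries without passing, and Rara, Rxrb and Ncor1 stood close to their wild-type levels. Over all 16511 genes tested, 3.42% passed, 2.83% higher and 0.581% lower. The median log2 fold change was 0.61 over the 8 genes and -0.0034 over all genes. Both fusion libraries lay above both wild-type libraries for 4 of the 8 (Rarb, Rarg, Rxra and Nrip1) and below them for 2 (Rxrb and Rxrg). Over all genes the shares were 27.1% above and 24.2% below. In a bulk library, more cells that express a gene and more RNA per cell cannot be told apart.

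**Figure D1:**
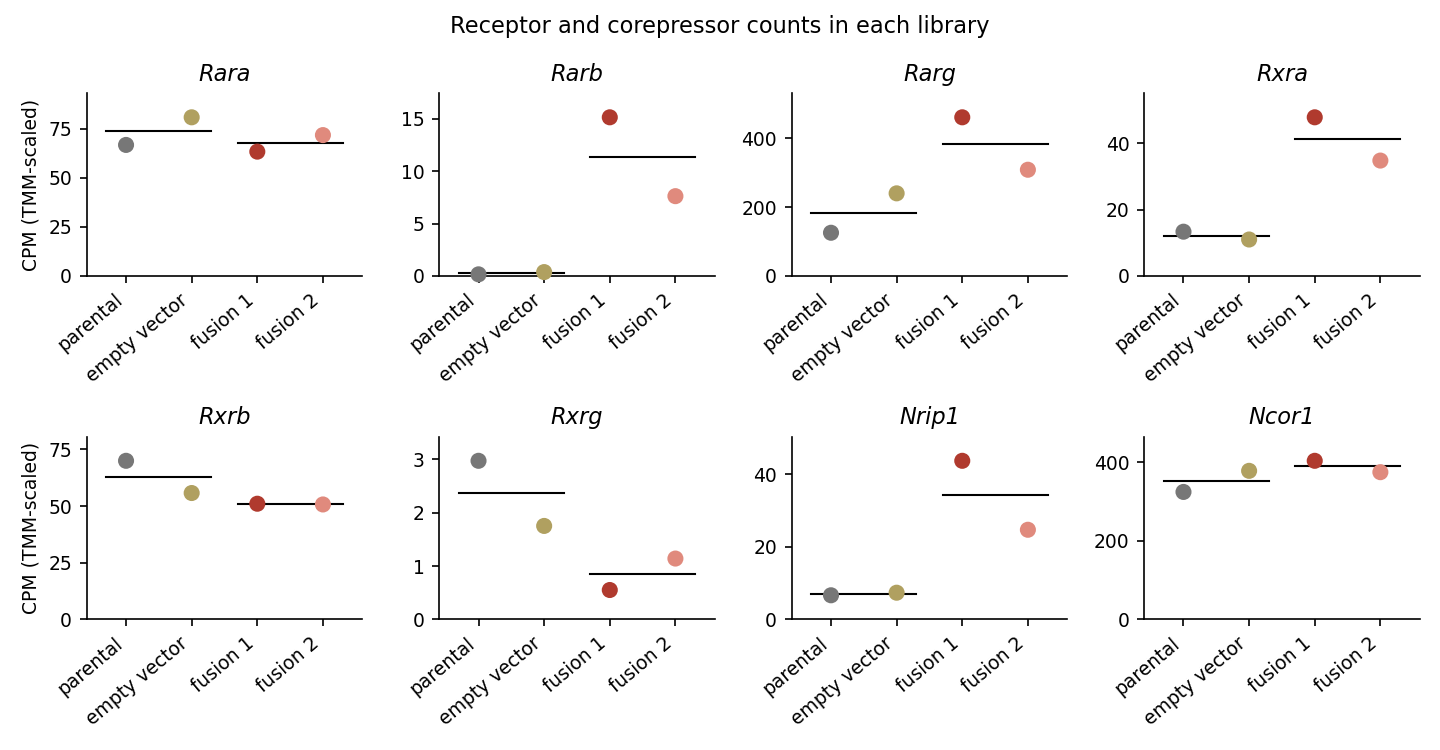
CPM (reads scaled to library size with TMM, linear axis from 0) of the 8 genes in the parental, empty-vector and 2 fusion libraries. Points are single libraries and horizontal lines are means of 2 libraries. Rarb, Rxra and Nrip1 stand apart between the groups, whereas the Rarg control libraries differ from each other by 1.91-fold.

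Rarb encodes RARβ. It had 3 counts in the parental library, 7 in the empty-vector library, 302 in fusion replicate 1 and 167 in fusion replicate 2. As CPM, a count scaled to library size with TMM, these were 0.156, 0.371, 15.1 and 7.61. The gene was thus barely detected in both controls and present in both fusion libraries, with more in replicate 1. Over the groups, 469 counts stood against 10, a ratio of 42.6 after scaling (95% exact binomial interval 23.0 to 89.4, counting error only). The fitted log2 fold change was 5.40 (SE 0.62, adjusted p = 0.0118, edgeR). Neither wild-type library reached the 0.503 CPM of the filter, so a tested Rarb had to be higher in the fusion group. The gene spans chromosome 14, 16430839 to 16819156 on the minus strand (GRCm38, GENCODE vM21), and its 3′ end overlaps Top2b on the plus strand. Top2b had 1205 and 831 counts in the controls and 1799 and 1788 in the fusion libraries. Whether counting used the strand is not stated, so reads of the overlap cannot be told apart. The antisense gene Gm48162, within the span of Rarb, had 1 count in fusion replicate 1 and 0 in each other library.

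Rarg encodes RARγ, the most abundant RAR in these cells. It stood at 125 CPM in the parental library, 240 CPM with the empty vector, and 461 and 308 CPM in fusion replicates 1 and 2. The groups did not overlap, but the controls lay far apart. The log2 fold change was 1.07 (SE 0.34) and did not pass (adjusted p = 0.137, edgeR). Against the parental line alone it was 1.62 when all 4 libraries were fitted (adjusted p = 0.0802), and 1.59 when the empty-vector library was left out of the fit, where it passed (adjusted p = 0.0307, edgeR). Against the empty vector alone it was 0.68 and 0.67 in the corresponding fits and passed in neither (adjusted p = 0.350 and 0.326). Those contrasts share the fusion libraries. Over all libraries Rarg passed with DESeq2's Wald test (adjusted p = 0.0331).

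Between the single control libraries, Rarg was 1.91-fold higher with the empty vector than in the parental line (95% exact binomial interval 1.82 to 2.01, counting error only, with no replicate). Among all genes averaging 5 CPM or more, 5.89% were at least as far apart between those libraries. Rarg lies on chromosome 15, 102234938 to 102257517 on the minus strand. The 451 other genes of chromosome 15 that averaged 5 CPM or more had a median log2 ratio of 0.34 in fusion replicate 1 to the mean of the other libraries, and of -0.14 in replicate 2. The 95 of them within 5 Mb had 0.50 and -0.12. In the parental and empty-vector libraries the median of the 95 was -0.15 and -0.17. Between fusion and wild type 9 of the 95 passed, all 9 higher, and the median log2 fold change of the 95 was 0.25. Of all 11315 genes averaging 5 CPM or more, 400 passed, 314 of them higher, and the median was -0.046. The chromosome's part in the Rarg values was not tested. Without fusion replicate 1 the log2 fold change of Rarg was 0.75 (adjusted p = 0.482). The tested genes nearest to it did not pass: Zfp740 and Itgb7 on one side had log2 fold changes of -0.04 and -0.23, and Gm9918 and Mfsd5 on the other had 0.98 and 0.23. Between the controls the 95 genes had a median log2 ratio, empty vector over parental, of -0.04.

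Rara encodes RARα, which is expressed in most tissues. Its level was 66.7 CPM in parental cells, 80.7 CPM with the empty vector, and 63.3 and 71.7 CPM with the fusion. The groups overlapped. With a log2 fold change of -0.13 (SE 0.19, adjusted p = 0.781, edgeR) it did not pass, and against the parental line alone the value was 0.02.

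Of the RXR genes, the shared partners of many nuclear receptors, Rxra alone passed the test. Rxra, on chromosome 2 (27676440 to 27762957, plus strand), was measured at 13.3 CPM in parental cells, 11.0 CPM with the empty vector, and 47.8 and 34.7 CPM with the fusion. Both controls were low and alike, and both fusion libraries were high. The mean rose 3.39-fold, from 12.2 ± 1.66 to 41.3 ± 9.21 CPM (SD, n = 2). Its log2 fold change was 1.76 (SE 0.26, adjusted p = 0.0236, edgeR). The call did not hold without fusion replicate 1 (log2 1.51, adjusted p = 0.110).

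Rxrb, the main RXR gene of these cells, was measured at 70.0 and 55.7 CPM in the controls against 51.0 and 50.7 CPM with the fusion. Both fusion libraries were slightly below both controls, by less than the controls differed from each other. It did not pass, with a log2 fold change of -0.31 (SE 0.20, adjusted p = 0.463, edgeR). Rxrg, which is best known from muscle and brain, had low counts, though all 4 libraries were past the filter's level of 0.503 CPM. Parental cells gave 57 counts, empty-vector cells 33, and the fusion replicates 11 and 25. The fusion values were the lowest, but at these counts the gene did not pass, with a log2 fold change of -1.47 (SE 0.57, adjusted p = 0.212, edgeR).

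The pair of corepressor genes differed. Nrip1 encodes RIP140, which binds receptors that carry ligand and dampens their activity. Parental cells had 6.67 CPM, empty-vector cells 7.37 CPM, and the fusion replicates 43.7 and 24.7 CPM. The controls were close together and well below both fusion libraries, of which replicate 1 was the higher. The mean rose 4.87-fold, from 7.02 ± 0.499 to 34.2 ± 13.4 CPM (SD, n = 2), a log2 fold change of 2.28 (SE 0.34, adjusted p = 0.0228, edgeR). Without fusion replicate 1 it was 1.81 and the call did not hold (adjusted p = 0.0843). Nrip1 lies on chromosome 16, 76287400 to 76373827 on the minus strand.

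Ncor1 encodes the scaffold that binds receptors without ligand and brings in the histone deacetylase HDAC3. It was abundant throughout, at 324 and 378 CPM in the controls against 403 and 374 CPM with the fusion. The groups overlapped and the gene did not pass, with a log2 fold change of 0.15 (SE 0.17, adjusted p = 0.709, edgeR). The annotated ends of Ncor1 overlap Ttc19 and Pigl on the other strand.

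The controls were also taken singly, with the spread then resting on the fusion pair. This was done in a fit of all 4 libraries as 3 groups, and in a fit that left the other control out. Rarb, Rxra and Nrip1 had similar sizes in both, but the calls differed. With all libraries fitted, 0.497% of all genes and none of the 8 passed against the empty vector. The log2 fold changes there were 4.91 for Rarb (adjusted p = 0.0537), 1.91 for Rxra (adjusted p = 0.0763) and 2.21 for Nrip1 (adjusted p = 0.102, all edgeR). Without the parental library 2.56% of all genes passed, and of the 8 so did these 3 (adjusted p = 0.00757, 0.0179 and 0.0352). Against the parental line, with all libraries fitted, 0.63% of all genes passed, and of the 8 only Rarb did, at 6.13 (adjusted p = 0.0402). Rxra and Nrip1 had 1.63 and 2.36 (adjusted p = 0.0937 and 0.0859). Without the empty-vector library 2.72% of all genes passed, with Rarb, Rxra, Nrip1 and Rarg among them (adjusted p = 0.00464, 0.0335, 0.0296 and 0.0307, edgeR). Both contrasts use the same fusion libraries, and why the fits differ was not tested.

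**Figure D2:**
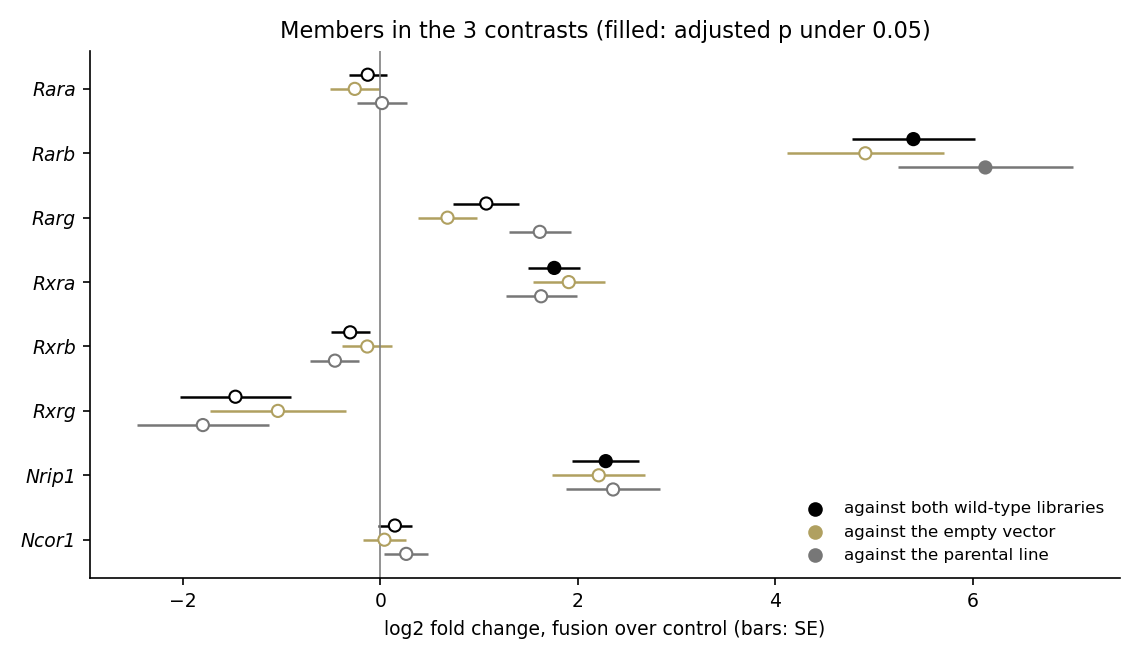
Log2 fold change of each of the 8 genes (x axis, bars are the SE) in fusion cells against both wild-type libraries (black), the empty vector (ochre) and the parental line (grey), with all 4 libraries fitted. Filled points have an adjusted p under 0.05. Rarb, Rxra and Nrip1 lie to the right in the 3 contrasts, at 4.91 to 6.13, 1.63 to 1.91 and 2.21 to 2.36, and Rarg shifts from 0.68 to 1.62 with the control used.

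The fusion libraries also differed from each other, with no replicate to test it. Rarb was 1.99-fold higher in replicate 1 than in replicate 2 (95% exact binomial interval 1.64 to 2.42), Nrip1 1.77-fold (1.59 to 1.97), Rarg 1.49-fold (1.45 to 1.54) and Rxra 1.37-fold (1.25 to 1.51). The 3 genes that passed and Rarg thus shared the order of the fusion libraries, as did Ncor1 with a smaller gap. Among all genes averaging 5 CPM or more, 5.55% were at least as far apart, in either direction, as Rarb. The shares were 8.49% for Nrip1, 16.7% for Rarg and 24.6% for Rxra. Rxrb had a ratio of 1.01 and Ncor1 of 1.08, and Rara was lower in replicate 1 (0.883). Rxrg was also lower there and had the ratio furthest from 1 of the 8 genes, 0.484 (0.215 to 1.02), from 11 and 25 counts. These intervals cover counting error only.

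Levels of different genes can be compared only per length, here in the authors' TPM, an abundance scaled to transcript length and depth. In wild-type cells the order was Ncor1 (179 ± 25.9 TPM), Rarg (99.5 ± 49.2), Rxrb (43.9 ± 5.19), Rara (37.7 ± 7.53), Rxra (4.80 ± 0.0636), Nrip1 (1.76 ± 0.721), Rxrg (1.60 ± 0.502) and Rarb (0.155 ± 0.0919; all SD, n = 2). Rxrb and Rara changed places between the controls, and so did Nrip1 and Rxrg, so neither pair differs beyond its spread. In the fusion libraries Rarg (221 ± 55.8 TPM) and Ncor1 (206 ± 15.9) were not separable, since each led in 1 library. Then came Rxrb (39.8 ± 1.82), Rara (35.8 ± 3.26), Rxra (16.5 ± 3.58), Nrip1 (9.17 ± 2.69), Rarb (5.88 ± 2.36) and Rxrg (0.715 ± 0.389). Between the groups Rarb moved from the last place to the last but one, and Rxrg to the last.

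Summed by family, RAR transcripts came to 97.1 TPM in parental cells, 178 TPM with the empty vector, and 301 and 223 TPM in the fusion libraries. RXR transcripts held between 46.2 and 58.0 TPM in all 4. The ratio of RAR to RXR was 1.79 in the parental library, 3.84 with the empty vector, and 5.19 and 3.98 in the fusion libraries. The empty-vector library was thus closer to fusion replicate 2 than to the parental library in this ratio. Rarg made up 66.6% and 75.6% of RAR transcripts in the controls and 86.4% and 81.1% in the fusion libraries. Rarb reached 2.51% and 1.88% there, against 0.0927% and 0.124% in the controls, so its rise added little to the RAR sum. Among RXR transcripts Rxra went from 8.91% and 10.3% to 32.8% and 24.9%, and Rxrb from 87.5% and 87.0% to 66.4% and 73.3%. Ncor1 exceeded Nrip1 by 129-fold and 87.0-fold in the controls and by 19.6-fold and 26.8-fold in the fusion libraries. No test was made of these shares and ratios.

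**Figure D3:**
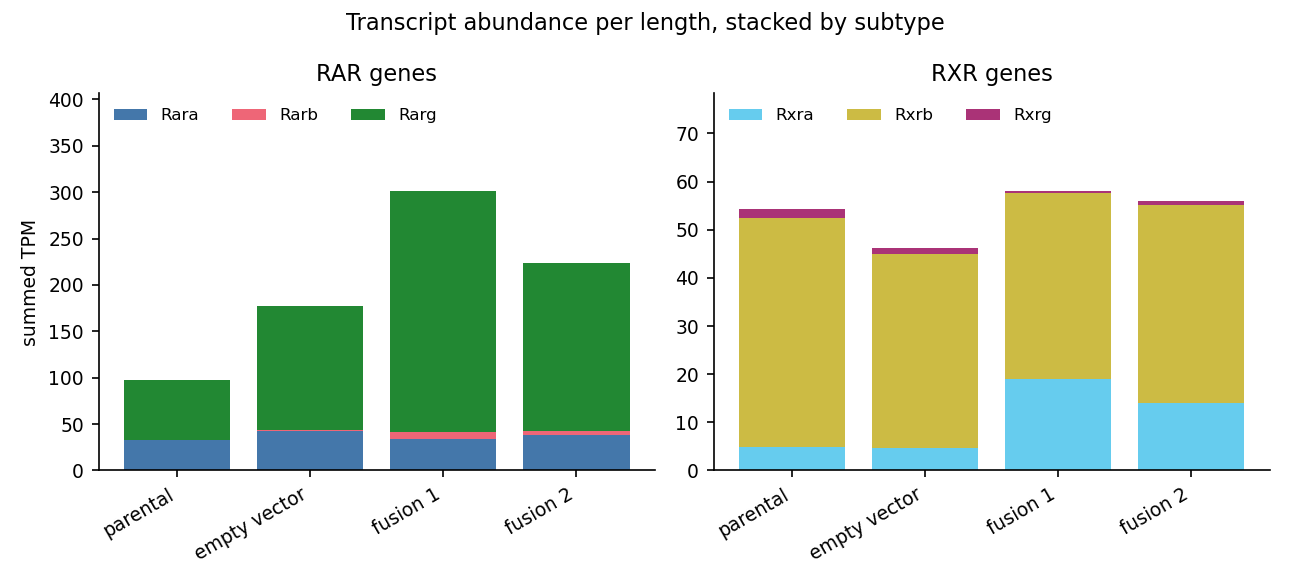
Abundance per length (summed TPM, linear axes from 0, a different scale for each family) of the RAR genes on the left and the RXR genes on the right, stacked by subtype in each library. The RAR sum runs from 97.1 to 301 TPM and is mostly Rarg, and the RXR sum stays between 46.2 and 58.0 TPM while the part of Rxra grows.

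The other genes of the pathway were described from lists of known members. Of 15 other corepressor genes, none passed with edgeR, and the median log2 fold change was -0.19 (0 higher and 3 lower at an unadjusted p under 0.05, and 0 higher and 2 lower with DESeq2, where 7.41% and 2.45% of all genes were lower). Abundant members were Hdac1, a histone deacetylase, with a log2 fold change of -0.06, and Ctbp2, a corepressor of the CtBP family, with -0.67 (adjusted p = 0.0990). None of 14 tested coactivator genes passed either, with a median of -0.03. At an unadjusted p 2 were higher (Ncoa3 and Ncoa6), near the 12.7% of all genes. DESeq2 counted 1 higher, where 5.28% of all genes were. Nsd1 and Prmt1, a histone and an arginine methyltransferase and the most abundant of that list, had log2 fold changes of -0.38 and -0.08. Of 8 tested receptors that pair with RXR, none passed, with a median of 0.45. At an unadjusted p 2 were higher (Vdr and Thrb), where 12.7% of all genes were. DESeq2 called 0 of the 9 in this list to which it gave an adjusted p. Thrb was under the filter's level in both controls and could only be tested as higher. The most abundant of the 8 were Nr1h2, which encodes the oxysterol receptor LXRβ (log2 -0.32), and Nr4a1 (log2 0.41).

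Among 16 tested nuclear receptors outside these families, 2 rose and 1 fell, where 2.83% of all genes rose and 0.581% fell. Nr6a1, which encodes the orphan receptor GCNF, a repressor of pluripotency genes during differentiation, had 97.8 and 82.9 CPM in the controls against 340 and 271 CPM with the fusion, a log2 fold change of 1.76 (SE 0.20, adjusted p = 0.0115, edgeR). Hnf4a, a receptor active in liver and visceral endoderm, had 0.573 and 0.530 CPM against 58.7 and 8.98 CPM, a log2 fold change of 5.92 (adjusted p = 0.0298, edgeR). Nr5a2, a receptor that sustains Pou5f1 expression, fell from 75.0 and 81.0 to 37.5 and 42.7 CPM (log2 -0.96, adjusted p = 0.0459). Esrrb and Nr0b1, the most abundant of those that did not pass, had log2 fold changes of 0.02 and -0.29. Hnf4a thus differed more between the fusion libraries than any of the 8 genes did.

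Genes that make, carry or break down retinoic acid included 14 that could be tested, of which 3 rose and 1 fell, with a median log2 fold change of 1.06. Aldh1a2, a retinaldehyde dehydrogenase that produces the ligand, rose from 3.59 and 4.14 to 378 and 109 CPM, by 5.97 on the log2 scale (adjusted p = 0.00883, edgeR). Dhrs3, a retinaldehyde reductase, rose from 1.09 and 1.22 to 32.0 and 13.5 CPM (log2 4.29), and Stra6, the retinol uptake receptor, from 0.313 and 0.530 to 7.52 and 3.92 CPM (log2 3.74). Fabp5, a fatty acid-binding protein that also carries retinoic acid, fell from 45.4 and 49.7 to 21.0 and 21.8 CPM (log2 -1.15, adjusted p = 0.0351). Rdh11, a retinol dehydrogenase and the most abundant of those that did not pass, had a log2 fold change of -0.72 and an adjusted p = 0.364 (edgeR). DESeq2 counted 7 higher and 1 lower in this list, where 5.28% of all genes were higher and 2.45% lower. Cyp26a1, whose DR5 is printed above, went from 2.08 and 0.424 to 11.2 and 10.6 CPM and did not pass with edgeR (log2 3.11, adjusted p = 0.0529), but passed with DESeq2.

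Of 14 tested genes known as targets of the receptors, 6 rose and none fell, where 2.83% of all genes rose and 0.581% fell. The median log2 fold change of the 14 was 2.76. Among the 6 were Stra8, Cdx1, Hoxb1, Hoxb4 and Zfp703. DESeq2, which gave an adjusted p for 15 genes of this list, counted 10 higher and 0 lower, where 5.28% of all genes were higher and 2.45% lower. In the controls only 7 of the 14 averaged 1 CPM or more, so the others had little room to fall, and 5 of the 14 were under the filter's level in both controls and could be tested through the fusion libraries alone. Zfp703, a transcriptional repressor, rose from 1.82 and 1.27 to 17.7 and 7.98 CPM (log2 3.05, adjusted p = 0.0311, edgeR). Tgm2, a transglutaminase, did not pass, at 1.89 on the log2 scale (adjusted p = 0.0912, edgeR). RefSeq windows were at hand for 8 of these targets, and none held a DR5.

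**Figure D4:**
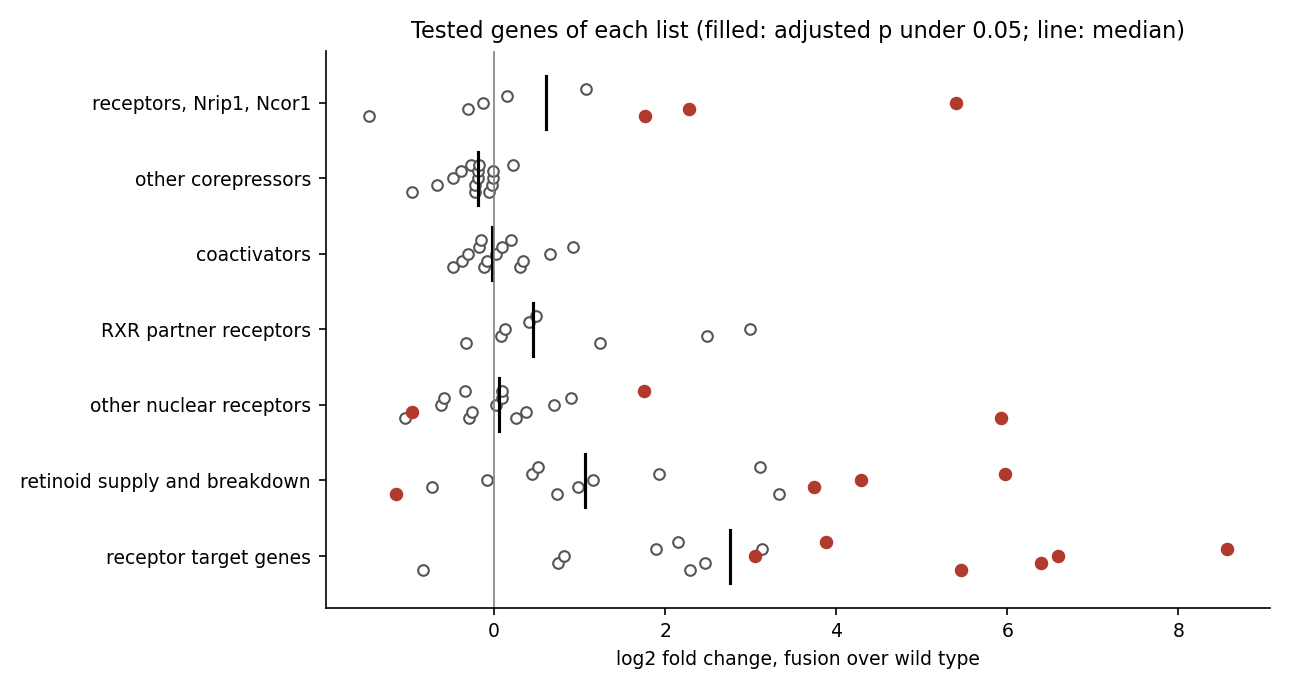
Log2 fold change, fusion over wild type (x axis), of each tested gene in the receptor set and 6 lists of related genes. Filled points have an adjusted p under 0.05 and black lines are medians, which run from -0.19 for the other corepressors to 2.76 for the receptor targets. Points are spread vertically for legibility.

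The genes closest in pattern were found by the distance between log2 CPM profiles over the 4 libraries, centred on each gene's mean, among 12022 named genes averaging 2 CPM or more. For Rarb they were Sox7, an endoderm and endothelial SOX factor (distance 0.33), Ntrk3, a neurotrophin receptor (0.37), and Bhmt, a betaine-homocysteine methyltransferase (0.43). For Rxra they were Tmem229b (0.026), Pmepa1, an inhibitor of TGF-beta signalling (0.067), and Nr6a1 (0.096). For Nrip1 they were Tll1, a secreted metalloprotease (0.055), Pde10a, a phosphodiesterase (0.090), and Plac9b (0.16). The distance rests on 4 libraries.

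The label of embryonic stem cells was checked against 12 pluripotency genes, which summed to 5787 and 6533 CPM in the controls and 6872 and 6719 CPM in the fusion libraries. None passed with edgeR. At its unadjusted p under 0.05, 3 were higher (Nanog, Klf4 and Tfcp2l1) and 2 lower (Klf2 and Utf1), where 12.7% and 7.41% of all genes were. DESeq2 called the same 3 higher and 1 lower (Klf2), where 5.28% and 2.45% of all genes were. Some markers of other cell types moved with the receptor genes. The sum of 11 primitive endoderm markers went from 87.3 and 74.2 CPM in the controls to 737 and 675 CPM. Of the 11, 9 were tested and all 9 rose, where 2.83% of all genes did. Of these, 4 (Gata6, Sox17, Sox7 and Foxa2) were under the filter's level in both controls and could only be tested as higher. Among the defining markers Sox17 and the visceral endoderm genes Afp and Ttr had 0 counts in the parental library, Ttr had 0 in the empty-vector library, and Afp had 0 in fusion replicate 1. The 6 markers of the 2-cell-like state summed to 4.69 and 14.0 CPM in the controls and to 71.1 and 359 CPM in fusion replicates 1 and 2, the opposite order to Rarb, Rxra and Nrip1. Of these, 5 were tested and 3 rose (Zscan4c, Zscan4d and Zfp352), where 2.83% of all genes did. Zfp352 and Tcstv3 were under the filter's level in both controls and could only be tested as higher. The Zscan4 genes among the 6 are near-identical copies, so their split is uncertain. Tcstv1 and Tcstv3 had 0 counts in the parental library, as Tcstv1 had in the empty-vector library. The 7 fibroblast markers summed to 40.8 and 26.9 CPM in the controls and 47.1 and 55.5 CPM in the fusion libraries. None passed by edgeR or DESeq2, and 2 were higher at edgeR's unadjusted p, as were 12.7% of all genes. Of the neural markers 1 of 5 tested rose (Sox1), where 2.83% of all genes did, and the median log2 fold change of the 5 was -1.30. Pax6 (log2 -2.08), Neurod1 (-3.17) and Map2 (-1.30) were lower at edgeR's unadjusted p under 0.05, as were 7.41% of all genes. DESeq2 called Sox1 higher, and Pax6 and Map2 lower, where 5.28% of all genes were higher and 2.45% lower. None of 5 mesoderm, 5 trophectoderm and 3 blood markers tested passed with edgeR. At its unadjusted p 1, 2 and 0 were higher and 1, 0 and 0 lower, where 12.7% and 7.41% of all genes were. DESeq2 called the mesoderm marker T lower, the trophectoderm marker Cdx2 higher and no blood marker. Its shares over all genes were 2.45% lower and 5.28% higher. The part of these cell states in the receptor values was not tested. The libraries held 19021386 to 21151729 estimated counts.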

How the data were processed

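Each of the 4 libraries has a gene table that the authors deposited, with expected counts, TPM and FPKM per the file headers. The submitters' processing notes list the build GRCm38/mm10 and the tools DESeq2 1.36.0, STAR 2.7.10a and RSEM 1.3.3. As deposited, expected counts are estimates in which reads that fit several genes are shared out. The deposited TPM values are scaled by effective transcript length and depth, and the deposited FPKM values were not used. No source used here gives the annotation release, the strand setting or any filter.

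Identifiers were matched to GENCODE vM21 (99.53% of 55401). After rounding, the main test was edgeR 4.0.16 (R 4.3.3) on the counts: TMM scaling, filterByExpr at a minimum count of 10, robust quasi-likelihood fit, Benjamini-Hochberg adjustment over 16511 genes. The SE is the absolute log2 fold change divided by the square root of F. The fit had 2 residual degrees of freedom. Depth was 19021386 to 21151729 estimated counts, and the filter asked for 0.503 CPM in at least 2 libraries. Alternatives were other scalings, filters, each control alone, each library left out, DESeq2 1.42.0, and limma 3.58.1 on log2 of TPM plus 1 or 0.1. The fit was tested on simulated data. DESeq2 was run on all genes and its calls were counted in each list.

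The members and lists were chosen with earlier results of these data known. All 8 genes were named. In each list up to 6 genes past the threshold by ascending p, and the 2 most abundant that did not pass, were eligible for naming, as were the 3 closest profiles of each member that passed and the 2 tested genes on each side of Rarg. Genes named beyond that rule were chosen after their values were seen: Cyp26a1, for its DR5, and those counted at an unadjusted p. Some genes that the rule makes eligible are counted in their lists and not reported here by name. Promoter windows are RefSeq's.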

Additional observations from a re-analysis of the deposited data

How the results depend on the processing

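The log2 fold changes of Rarb, Rxra, Nrip1 and Rarg stayed positive in all 14 alternatives, at 2.53 to 6.13, 1.51 to 1.97, 1.81 to 2.64 and 0.67 to 1.62. Those of Rxrb and Rxrg stayed negative. The log2 fold change of Rara reversed to 0.017 against the parental line alone. With all 4 libraries fitted as 3 groups, Rarb did not pass against the empty vector, and Rxra and Nrip1 passed against neither control. With the other control left out of the fit, which leaves the same contrasts, the 3 genes passed against each control. Rxra and Nrip1 did not pass without fusion replicate 1. Rarg passed with DESeq2 and without the empty-vector library.

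Of the 8 genes, 0 passed against the empty vector and 1 against the parental line in the fit with 3 groups, against 3 and 4 with the other control left out. Leaving out each library in turn gave 1 (without fusion replicate 1) to 4. Over all genes 564 passed, against 1946 with no filter, 1363 with DESeq2, 82 against the empty vector alone and 104 against the parental line alone (447 and 475 with the other control left out), and 163 to 552 with each library left out. Against the empty vector the count was 221 with DESeq2's size factors, 13 with library totals, 1553 with no filter and 162 with a fit that is not robust. Against the parental line it was 281, 29, 1671 and 160. Counted without length, Rxra was 44.1% and Rxrb 55.0% of the RXR sum in fusion cells, since their transcripts differ in length. The cause of the other shifts was not tested. No paired analysis was possible because the control libraries carry no replicate numbers.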

Other observations

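The mean transcript length that RSEM gave to a gene, weighted by the abundance of its isoforms, differed between libraries for some of the 8 genes. For Nrip1 it was 7245 bases in the parental library, 4764 with the empty vector, and 5899 and 5249 in fusion replicates 1 and 2. The TPM of Nrip1 therefore differed more between the controls (1.25 and 2.27) than its CPM did (6.67 and 7.37). For Rarb it was 2388 and 2514 bases in the controls, from 3 and 7 counts, and 3034 and 2828 bases in the fusion libraries. For Rxrg it was 2110 bases in both controls and 1940 and 1822 bases in the fusion libraries, and for Ncor1 2771, 2838, 2815 and 3004 bases in the order of the libraries above. Isoform tables were not used here.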
